A study of Mus musculus with 10 samples.

Results

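The insulin-like growth factor (IGF) genes described here are the 2 ligands Igf1 and Igf2, the receptors Igf1r and Igf2r, and the 6 binding proteins Igfbp2 to Igfbp7. They were taken by symbol from the deposited table and are 10 of its 55421 genes. All 10 were among the 18509 genes with enough counts to be tested. The table held 10 RNA sequencing libraries of ulcer tissue from db/db mice, a strain that lacks a working leptin receptor and becomes obese and diabetic. The ulcers were made by surgery. The saline group (5 libraries) received saline and the ointment group (5 libraries) received saline and Fu Huang ointment, in both cases for 7 days, so diabetes and the wound are common to both groups. Age and sex are not in the labels, and neither is the number of animals behind the libraries. All p-values therefore rest on library-to-library spread, whether biological or technical.

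IGF1 and IGF2 are small peptides related to insulin that drive growth and survival of cells. Both act through the receptor tyrosine kinase IGF1R, whereas IGF2R, also the mannose 6-phosphate receptor, takes up IGF2 and carries it to the lysosome. The binding proteins hold the ligands outside cells, prolong their life and limit their access to the receptor, and proteases such as PAPP-A free the ligands by cutting them. In wounded skin, fibroblasts and macrophages are known sources of IGF1, and keratinocytes carry its receptor.

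Gene positions are those of GENCODE on GRCm38. The ligand genes were Igf1 (ENSMUSG00000020053) at 87858265 to 87937042 of chromosome 10, plus strand, and Igf2 (ENSMUSG00000048583) at 142650766 to 142666816 of chromosome 7, minus strand. The receptor genes were Igf1r (ENSMUSG00000005533) at 67952827 to 68233668 of chromosome 7, plus strand, and Igf2r (ENSMUSG00000023830) at 12682406 to 12769664 of chromosome 17, minus strand. Among the binding protein genes, Igfbp3 (ENSMUSG00000020427) lay at 7206086 to 7213923 of chromosome 11, minus strand, and Igfbp4 (ENSMUSG00000017493) at 99041244 to 99054392 of chromosome 11, plus strand. Next came Igfbp6 (ENSMUSG00000023046) at 102144362 to 102149511 of chromosome 15, plus strand, and Igfbp7 (ENSMUSG00000036256) at 77349240 to 77408041 of chromosome 5, minus strand. Igfbp2 (ENSMUSG00000039323) and Igfbp5 (ENSMUSG00000026185) are neighbours on chromosome 1.

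None of the 10 genes differed between ointment and saline ulcers at the threshold used, an adjusted p of 0.05 by edgeR's quasi-likelihood test with Benjamini-Hochberg adjustment over all 18509 genes, at which 1.67% of tested genes were called. At an unadjusted p under 0.05 there were 2 of the 10 genes, Igf1 and Igfbp2, both lower with ointment, beside 17.1% of all tested genes. DESeq2, which called 9.09% of genes, called none of the 10 either. In no member were the ranges of the groups apart, as they were in 6.54% of tested genes. Of the 10 log2 fold changes (ointment against saline), 8 were negative and 2 positive, with a median of -0.26 beside -0.0025 over all tested genes. Levels are given as CPM, a gene's count relative to its library's size after TMM scaling, which also adjusts for composition. In tissue as mixed as an ulcer, fewer cells of a type and less RNA per cell cannot be told apart.

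Set against gene length, 5 of the 6 binding protein genes had higher mean levels than the ligands and receptors, Igfbp2 ranked among the lower genes (9 of 10 in saline and 8 in ointment), and the receptor Igf1r was the least abundant. In saline ulcers Igfbp7, a member that binds IGFs weakly and is known from blood vessels, stood at 299.6 ± 70.4 CPM per kb of exon (SD, n = 5). Its lowest saline library, at 191 CPM per kb, was above the highest library of the next gene, Igfbp4 (81.1 ± 23.5, up to 107 CPM per kb). Igfbp4, Igfbp5 (75.0 ± 19.1), Igfbp6 (64.1 ± 21.2) and Igfbp3 (56.0 ± 11.7 CPM per kb) followed, each overlapping its neighbour in that order. After a gap came Igf2r (17.5 ± 0.804), Igf1 (11.5 ± 7.08), Igf2 (11.4 ± 6.74) and Igfbp2 (10.4 ± 3.35 CPM per kb), again with overlap between neighbours. Igf1r was last at 3.59 ± 0.467 CPM per kb, and its highest saline library (4.06) was below the lowest of Igfbp2 (6.86).

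**Figure D1:**
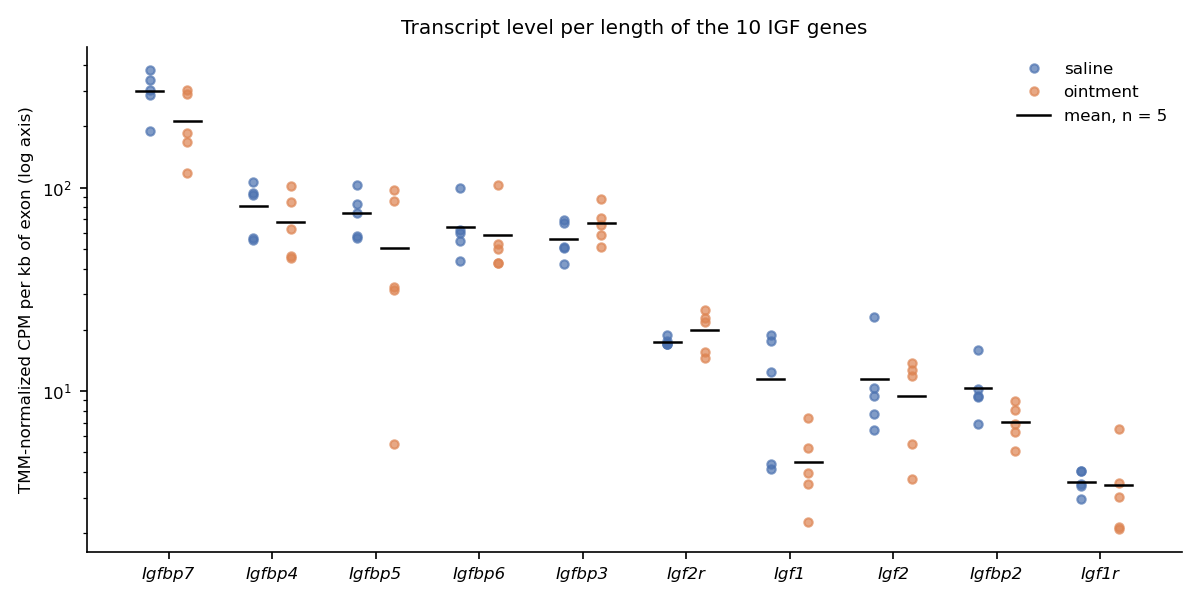
Level of each gene per kb of merged exons (log axis) in 5 saline and 5 ointment libraries; points are libraries and lines are group means. Igfbp7 is highest (means 299.6 and 212 CPM per kb) and Igf1r lowest (3.59 and 3.46).

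In ointment ulcers the order kept Igfbp7 first (212 ± 79.7 CPM per kb), Igf2r at rank 6 (20.02 ± 4.68) and Igf1r last (3.46 ± 1.80), while Igfbp3 ranked 3 (66.7 ± 13.9) and Igf1 ranked 9 (4.47 ± 1.95 CPM per kb, ranges overlapping with Igf1r). Dividing by the longest transcript in place of merged exons exchanged the places of Igfbp3 and Igfbp6 and of Igf2 and Igfbp2 in saline. In ointment it exchanged those of Igfbp3 and Igfbp4. The summed binding protein transcripts exceeded the summed ligands in every library, by 10.9 to 59.8 times in saline and 22.9 to 63.99 times in ointment, per kb. Transcript ratios are not ratios of the secreted proteins.

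Among the ligands, Igf1, made in many tissues under growth hormone, had the largest log2 fold change of the family with edgeR. With limma voom that of Igfbp5 was larger (-1.32, against -1.16 for Igf1), and neither passed. The saline libraries 1 to 5 held 40.9, 43.3, 176, 123 and 188 CPM of Igf1. The ointment libraries 1 to 5 held 51.9, 73.2, 39.3, 34.5 and 22.4 CPM. Saline 3, 4 and 5 lay above every ointment library, and saline 1 and 2 lay within the ointment range. Means were 114 ± 70.1 CPM for saline and 44.3 ± 19.3 CPM for ointment, a log2 fold change of -1.37 (SE 0.49, 95% interval -2.46 to -0.27), with an adjusted p of 0.189 by edgeR. The interval runs from 0.182 to 0.828 of the saline level. With any library left out the estimate was between -1.63 and -1.11. Across 21 other settings the adjusted p ran from 0.0572, with DESeq2, to 0.477.

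**Figure D2:**
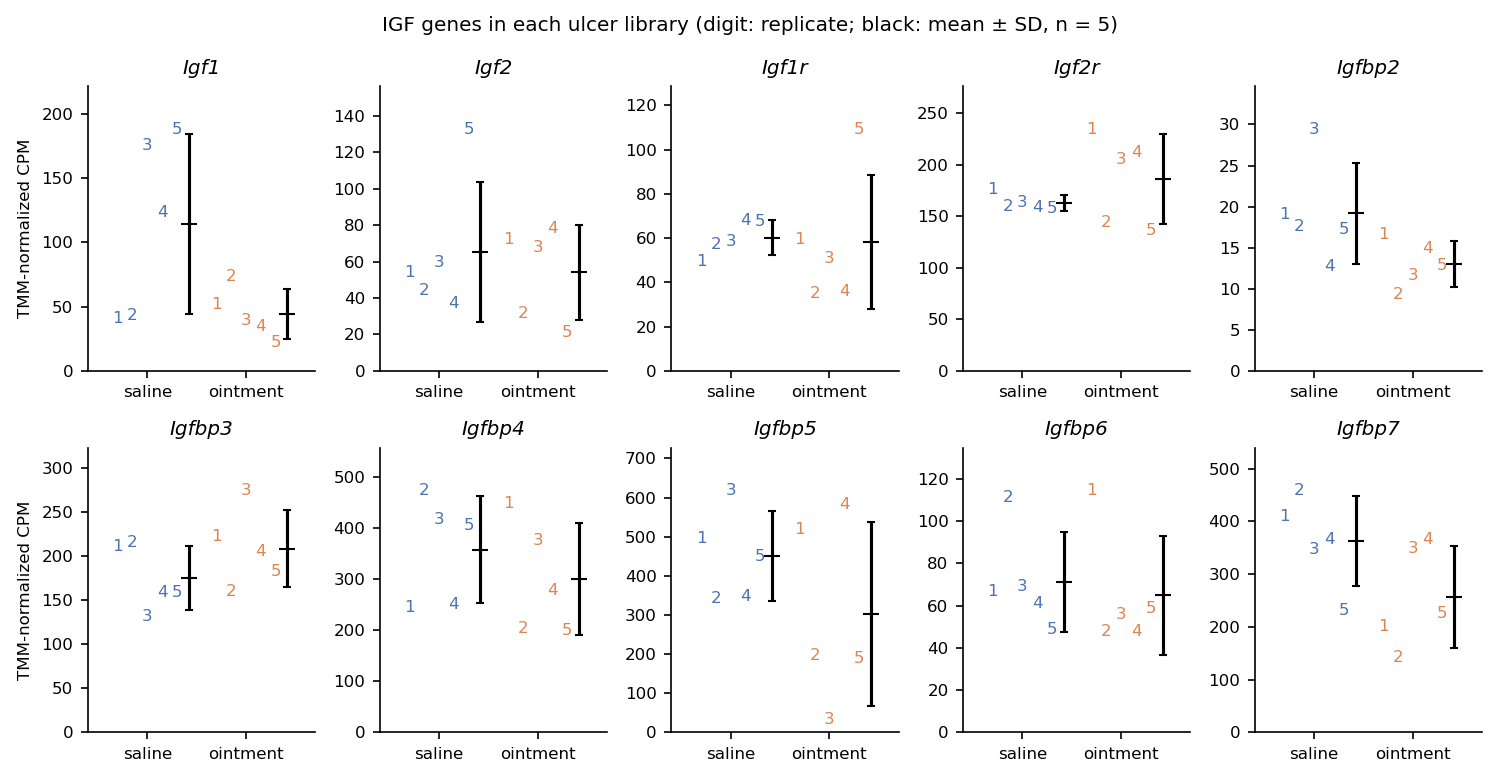
TMM-normalized CPM of each gene (linear axes from 0) in saline and ointment libraries, each library shown by its replicate digit, with the mean ± SD in black. Igf1 is at 123 to 188 CPM in saline 3 to 5 and at 22.4 to 73.2 CPM in the ointment libraries, and Igfbp5 drops to 32.9 CPM in ointment 3.

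Igf1 was set beside markers of macrophages, which are among its known sources. Of 10 macrophage markers, 2 rose with ointment by edgeR (Adgre1 and Cd68) and 8 did not pass, beside 1.67% of all tested genes called. All 10 markers had positive fold changes (median 0.65) and none was at 0 in any library. Their summed level was 1418 to 2686 CPM in saline and 3043 to 4147 CPM in ointment. Saline 1 and 2, the low libraries for Igf1, also had the lowest macrophage sums (1418 and 1885 CPM, against 2509 to 2686 CPM in saline 3 to 5). In ointment the sums were higher and Igf1 was not: Igf1 was 0.732 to 2.41% of the macrophage sum there and 2.30 to 6.99% in saline. Of 11 fibroblast markers none passed and 9 were negative (median -0.23), with summed levels of 38927 to 61098 CPM in saline and 19936 to 63429 CPM in ointment. The lowest fibroblast sums were in ointment 5 (19936 CPM) and ointment 2 (25992 CPM), and these libraries had the lowest and the highest Igf1 of the ointment group. The part of either cell type in the Igf1 difference was not tested.

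**Figure D3:**
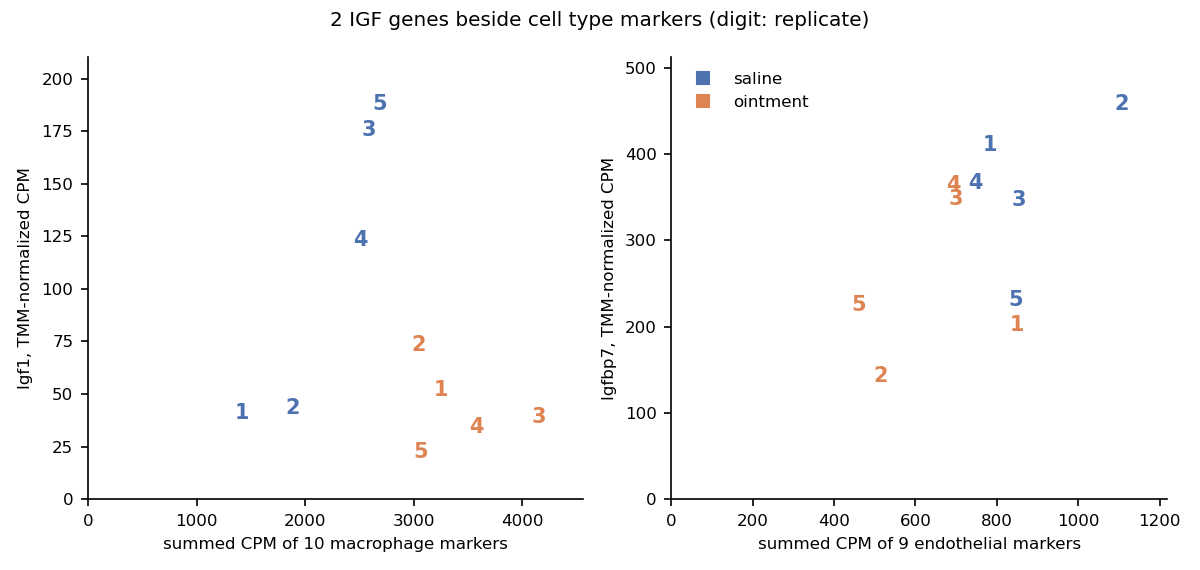
Igf1 against the summed CPM of 10 macrophage markers (left) and Igfbp7 against that of 9 endothelial markers (right), 1 digit per library. The ointment libraries lie at higher macrophage sums (3043 to 4147 CPM) and at 22.4 to 73.2 CPM of Igf1.

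Igf2, the ligand that dominates before birth and is expressed from the paternal allele, also varied widely between libraries and did not pass the test. It was 54.0, 44.0, 59.3, 37.0 and 133 CPM in saline libraries 1 to 5 and 72.3, 31.4, 68.0, 78.4 and 21.1 CPM in ointment libraries 1 to 5. Saline 5 stood apart as the highest and ointment 5 was the lowest. The log2 fold change was -0.27 (SE 0.44, 95% interval -1.26 to 0.72, adjusted p = 0.838 by edgeR) and turned to 0.16 without saline 5. Igf2 shares some exon bases with the opposite-strand gene Igf2os, and most of its exon bases with the predicted gene Gm49394 on the same strand. Igf2os held 0 to 76 counts per library and Gm49394 held 0 in every library, against at least 1113 counts of Igf2. The 0 of Gm49394 cannot show whether reads in shared bases were kept for Igf2, because the counting program is not known. A loss of Igf2 counts to this overlap was not tested. The level of Igf2 per kb and its ratios to Igf1 carry the same limit. H19, the maternally expressed noncoding RNA beside Igf2, was 888 ± 295 CPM in saline and 662 ± 475 CPM in ointment and did not pass (log2 fold change -0.42, adjusted p = 0.74). Saline 5 was also highest for H19 (1284 CPM) and ointment 5 lowest (228 CPM).

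Igf1 transcript was more abundant per kb than Igf2 in saline 3 (1.71 times) and saline 4 (1.93 times) and in ointment 2 (1.35 times). It was the less abundant ligand in the other 7 libraries, down to 0.254 of Igf2 in ointment 4.

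Neither receptor gene passed the test. Igf1r, the signalling receptor, was 49.4, 57.3, 58.6, 68.1 and 67.7 CPM in saline and 59.5, 35.1, 50.7, 36.0 and 109 CPM in ointment libraries 1 to 5. Ointment 5 was the highest of all 10, and ointment 2 and 4 were the lowest, so the ointment libraries lay on both sides of the saline range. The log2 fold change was -0.05 (SE 0.30, 95% interval -0.71 to 0.61, adjusted p = 0.96 by edgeR). It was -0.41 without ointment 5 and turned to 0.08 and 0.088 without ointment 2 and 4.

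With the groups pooled, Igf2r was the steadiest member, with the smallest within-group SD of log2 CPM (0.25). Its spread was small in saline (163 ± 7.49 CPM). In ointment Igf2r (186 ± 43.6 CPM) spread no less than Igfbp3 (209 ± 43.5 CPM). The saline libraries of Igf2r lay between 158 and 176 CPM, and its ointment libraries were at 234, 144, 205, 212 and 136 CPM. Ointment 1, 3 and 4 were above the saline range and ointment 2 and 5 below it. Its log2 fold change was 0.19 (SE 0.16, adjusted p = 0.609 with edgeR), and the 95% interval of the ratio was 0.896 to 1.46. A change of Igf2r by 2-fold or more in either direction therefore lay outside the interval. For Igf1, Igf2, Igfbp2, Igfbp5 and Igfbp7 a 2-fold fall lay inside the interval.

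**Figure D4:**
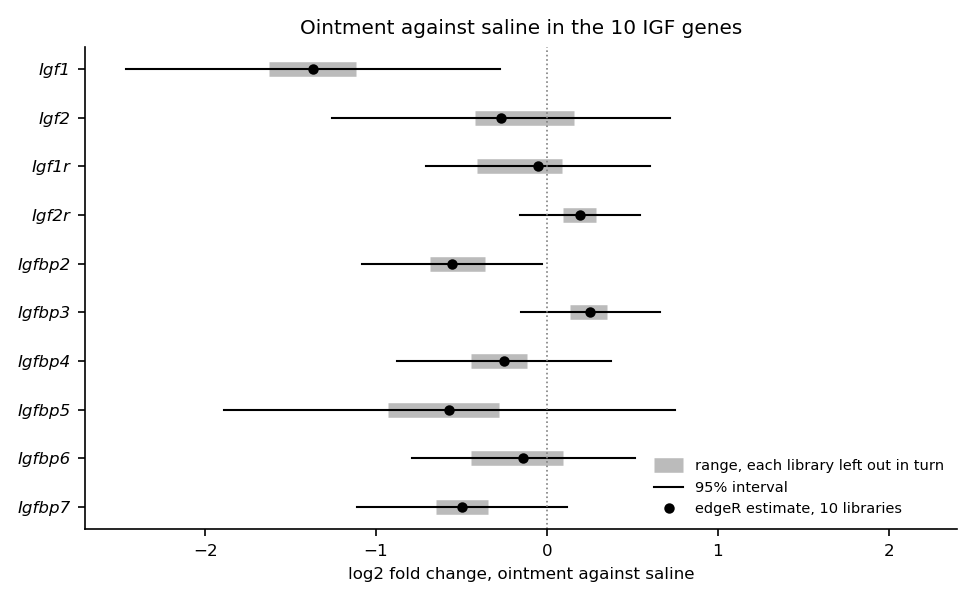
Log2 fold change of each gene, ointment against saline, by edgeR (points), with 95% intervals (lines) and the range of estimates when each library is left out in turn (grey bars). The intervals of Igf1 and Igfbp2 lie below 0 before adjustment for the number of genes, and the estimates of Igf2, Igf1r and Igfbp6 cross 0 when 1 library is left out.

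Of the 6 binding protein genes, 5 had negative fold changes and Igfbp3 a positive one. Igfbp2, which binds IGF2 by preference, was the least abundant of the 6 per kb. It was 19.03, 17.6, 29.4, 12.7 and 17.3 CPM in saline and 16.6, 9.36, 11.6, 14.9 and 12.8 CPM in ointment libraries 1 to 5. Only saline 4 lay within the ointment range. The log2 fold change was -0.56 (SE 0.24, 95% interval -1.08 to -0.03, unadjusted p = 0.04 and adjusted p = 0.263 by edgeR). The estimate stayed negative in all 21 other settings, with adjusted p between 0.183 and 0.521.

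Igfbp3, the main carrier of IGFs in blood, was 211, 216, 132, 159 and 158 CPM in saline and 222, 159.9, 274, 206 and 182 CPM in ointment libraries 1 to 5. The groups overlapped, and the log2 fold change of 0.25 (SE 0.18, 95% interval -0.15 to 0.66) did not pass (adjusted p = 0.554 by edgeR). The sum of the 6 genes was 586 ± 97.4 CPM per kb in saline and 463 ± 120 CPM per kb in ointment. The share of Igfbp3 in it was 6.98 to 10.98% in the saline libraries and 11.4 to 17.3% in the ointment libraries, ranges that did not overlap. The shares of all the other binding protein genes overlapped between the groups. The Igfbp3 share also depends on Igfbp7, the largest part of the sum, with means of 299.6 CPM per kb in saline and 212 in ointment. It is a ratio over the members, which were chosen with earlier results known, and the Igfbp3 share was not tested.

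**Figure D5:**
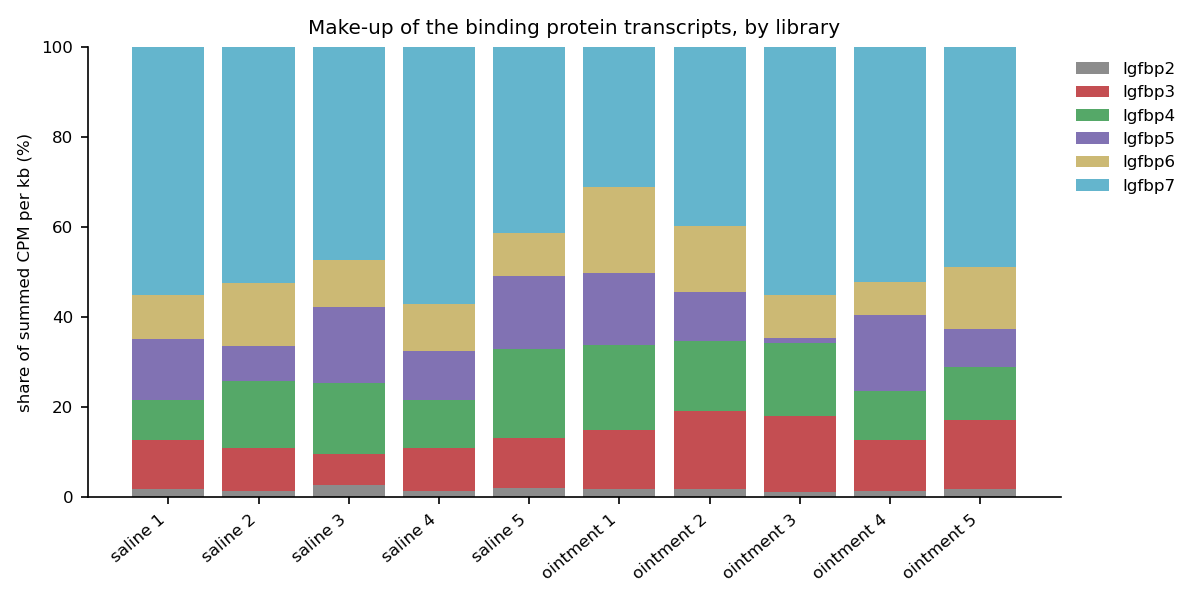
Share of each binding protein gene in the summed CPM per kb of the 6 genes, 1 bar per library. Igfbp7 makes up 31.0 to 57.2% of each bar, Igfbp3 is at most 10.98% in saline and at least 11.4% in ointment, and Igfbp5 is 1.05% in ointment 3.

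Igfbp4, an inhibitory binding protein and the classic substrate of PAPP-A, was 244, 473, 417, 251 and 405 CPM in saline and 448, 203, 375, 278 and 199 CPM in ointment libraries 1 to 5. Its log2 fold change of -0.25 (SE 0.28, adjusted p = 0.73 by edgeR) was within the spread of either group. Igfbp4 was 0.493 to 0.803% of the summed fibroblast markers in saline libraries and 0.613 to 0.997% in ointment libraries. The low ointment libraries, 2 and 5, were those with the lowest fibroblast marker sums, and the part of fibroblasts in this was not tested.

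Igfbp5, the most conserved binding protein and one made by mesenchymal cells, had the widest spread of the family. It was 496, 341, 617, 347 and 451 CPM in saline and 518, 195, 32.9, 582 and 189 CPM in ointment libraries 1 to 5. Ointment 1 and 4 lay within the saline range, ointment 2 and 5 were lower and ointment 3 was far below all others. On the log2 scale the step from ointment 3 to the next library was 2.52, and 4.47% of the 12303 genes with a mean of at least 5 CPM had a step as wide somewhere among their 10 libraries. The log2 fold change of -0.57 (SE 0.59, 95% interval -1.89 to 0.75, adjusted p = 0.708 by edgeR) moved to -0.28 without ointment 3, to -0.93 without ointment 4 and to -1.32 with limma voom and sample weights (adjusted p = 0.381). The neighbours Igfbp2 and Igfbp5 lie on chromosome 1 (72824503 to 72852474 and 72857932 to 72874884, GRCm38), on opposite strands. In ointment 3 Igfbp2 was 11.6 CPM, below every saline library and above ointment 2 alone (9.36 CPM).

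The promoters of the members with the smallest and the largest pooled within-group SD of log2 CPM are shown side by side. They are the 250 bases before the RefSeq start of Igf2r and of Igfbp5 (RefSeq, GRCm38.p6). Igf2r lies on the minus strand at chr17:12769707-12769956 and Igfbp5 on the minus strand at chr1:72874866-72875115. Both are written 5′ to 3′, with capitals for a GC box (GGGCGG on either strand) or for a TATA-like element (TATAAA or TATTTAA on either strand).
Igf2r: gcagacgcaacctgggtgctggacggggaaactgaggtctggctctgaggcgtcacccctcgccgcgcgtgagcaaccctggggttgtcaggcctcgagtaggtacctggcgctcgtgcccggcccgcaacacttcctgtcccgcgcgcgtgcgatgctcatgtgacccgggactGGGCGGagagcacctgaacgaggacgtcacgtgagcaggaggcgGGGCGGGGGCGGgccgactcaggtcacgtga
Igfbp5: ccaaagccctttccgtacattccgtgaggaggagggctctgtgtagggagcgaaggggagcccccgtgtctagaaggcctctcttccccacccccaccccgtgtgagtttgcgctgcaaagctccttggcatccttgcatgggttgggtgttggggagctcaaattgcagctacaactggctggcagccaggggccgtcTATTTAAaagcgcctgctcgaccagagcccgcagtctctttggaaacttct
The Igf2r window held 3 GC boxes and no TATA-like match, and the Igfbp5 window held 1 TATA-like match and no GC box. Of 32851 RefSeq windows of this length, 32.7% held a GC box and 15.6% a TATA-like match. The motifs were chosen after the windows were seen, and a match is a description of these letters and not of a bound factor. Of the 14 windows of the members, those of Igfbp4, Igfbp5 and Igfbp6 held a TATA-like match. GC boxes were also found in windows of Igfbp7 (4), Igfbp2 (3), Igf1r (2) and Igf2 (1 and 2 in separate windows).

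Igfbp6, which prefers IGF2, was 66.7, 111, 69.2, 60.9 and 48.6 CPM in saline and 114, 47.6, 55.8, 47.6 and 58.6 CPM in ointment libraries 1 to 5. Each group had 1 library above 100 CPM, saline 2 and ointment 1. The edgeR estimate was -0.14 on the log2 scale (SE 0.29, adjusted p = 0.881), and it was 0.094 without saline 2 and -0.44 without ointment 1.

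Igfbp7 was 410, 458, 346, 367 and 231 CPM in saline and 202, 142, 348, 365 and 225 CPM in ointment libraries 1 to 5. Ointment 1, 2 and 5 were below every saline library, and ointment 3 and 4 were within the saline range. The means were 362 ± 85.1 and 256 ± 96.4 CPM (log2 fold change -0.50, SE 0.28, 95% interval -1.11 to 0.12, adjusted p = 0.404 by edgeR). Of 9 endothelial markers none passed, all 9 had negative fold changes (median -0.43) and none was at 0. Their sum was 748 to 1107 CPM in saline and 460 to 849 CPM in ointment. Ointment 2 and 5 had the lowest endothelial sums (513 and 460.0 CPM) and Igfbp7 at 142 and 225 CPM, saline 2 was highest for both (1107 and 458 CPM), and ointment 1 had a sum of 849 CPM with Igfbp7 at 202 CPM. The summed level of 6 pericyte markers was 595 to 726 CPM in saline and 256 to 548 CPM in ointment, with none of the 6 passing, 5 negative and a median of -0.85. The part of vessel cells in the Igfbp7 values was not tested. Igfbp7 shares 85 of its 1209 exon bases with Polr2b on the other strand. Over its whole length Polr2b held 4240 to 7339 counts per library, and the library kit is not stated to keep strand.

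Libraries of one group did not move as one across the family. After each group mean was subtracted from log2 CPM, the Pearson correlation over the 10 libraries was 0.714 for Igf2 with Igf2r, the highest of the 45 pairs, and 0.649 for Igfbp3 with Igfbp7. It was -0.644 for Igf1 with Igfbp3 and -0.618 for Igf1 with Igfbp7, the lowest pairs. With H19, Igf2 and Igf2r each gave 0.811 and Igfbp4 gave 0.781, and the other members ranged from -0.16 (Igf1r) to 0.481 (Igfbp3). These are descriptions over 10 libraries that share depth, scaling and cell make-up, and carry no p.

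By the same measure, the 3 genes most like each member were picked from 11939 expressed genes, with correlations of 0.893 to 0.989. The correlations are the highest of 11939 over 10 libraries, so their size follows in part from the selection, and they carry no p. Igf2r was closest to Hykk (0.989), a hydroxylysine kinase gene, then to St6galnac3 (0.981) and Sertad4 (0.976). Igf2 was closest to the mesenchymal transcription factor gene Tbx15 (0.948), the phosphatase gene Ptp4a3 (0.946) and Pigp (0.942). Among the genes most like Igf1 were Mypop (0.934) and Pard6g (0.914). Igfbp3 was closest to Wnt2 (0.938), Zfp9 (0.919) and Raver2 (0.912). Igfbp4 was closest to the secreted protease gene Htra3 (0.952), Nsmf (0.934) and the procollagen processing enhancer gene Pcolce (0.933). Igfbp5 was closest to the BMP antagonist gene Nbl1 (0.961), Grap (0.955) and Tapbp (0.954), and Igfbp2 to Vwf (0.921), the von Willebrand factor gene of endothelium, Klf11 (0.919) and Tecpr1 (0.914). With Spearman ranks, at least 2 of the 3 genes were chosen again only for Igf2 and Igfbp3.

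The remaining genes of the pathway were read from 4 lists, and none of their 46 tested members passed with edgeR. Of 10 further genes of the IGF axis 7 were tested. Igfbp1, a binding protein of liver, was at 0 counts in every library, Igfbpl1 and Insrr were at 0 to 16 counts, and all 3 were below the testing limit. The insulin receptor gene Insr, whose protein also binds IGF2, was at 0.37 on the log2 scale (adjusted p = 0.712). The largest values were of mRNA binding proteins that hold Igf2 among their targets. Igf2bp3 was 0.809 to 2.63 CPM in saline and 3.09 to 5.77 CPM in ointment, without overlap (edgeR: log2 fold change 1.499, SE 0.39, adjusted p = 0.0836). Igf2bp1 (1.92, adjusted p = 0.172) and Igf2bp2 (0.61, 0.663) were also positive, and Kazald1 was at -0.53 (0.466). DESeq2 called Igf2bp3 (adjusted p = 0.00356) and Igf2bp1 (0.0397), beside 9.09% of all genes. Of the 21 tested genes of the lists outside signalling, 1 had groups without overlap, Igf2bp3, beside 6.54% of all tested genes.

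Of 7 binding protein proteases and their inhibitors, 6 were tested and 3 had an unadjusted p under 0.05, beside 17.1% of all tested genes. Htra1, a secreted serine protease, averaged 189 ± 60.4 CPM after saline and 124 ± 24.6 CPM after ointment (edgeR: -0.61 on the log2 scale, adjusted p = 0.195). Pappa, the gene of PAPP-A, was at -0.58 (adjusted p = 0.291) and its paralogue Pappa2 at 0.44 (0.289). The PAPP-A inhibitor gene Stc2 was at -0.14 (adjusted p = 0.76).

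Of 26 genes of signalling below the receptors 25 were tested (Irs4 was at 0 counts throughout), with 13 positive and 12 negative fold changes and a median of 0.04. The adaptor gene Grb2 was 79.5 to 99.3 CPM in saline and 104 to 142 CPM in ointment (edgeR: log2 fold change 0.49, SE 0.11, adjusted p = 0.0578). Tsc2, a brake on mTOR, was 41.8 to 50.5 CPM in saline and 32.1 to 39.4 CPM in ointment (log2 fold change -0.33, SE 0.096, adjusted p = 0.111). Grb2 and Tsc2 were the 2 genes of the 25 whose groups did not overlap, beside 6.54% of all tested genes. Grb14, an inhibitory adaptor of the insulin receptor, was at 0.71 (adjusted p = 0.143), and the receptor substrate gene Irs2 at 0.65 (0.181). DESeq2 called 3 of the 25, Grb2, Tsc2 and Grb14, beside 9.09% of all genes.

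All 8 genes of the growth hormone axis were tested, 6 with positive values. Socs3, a feedback inhibitor also induced by cytokines, was 32.0 to 141 CPM in saline and 122 to 622 CPM in ointment, highest in ointment 5 (edgeR: log2 fold change 1.85, SE 0.57, adjusted p = 0.134). DESeq2 called it (adjusted p = 0.0137), beside 9.09% of all genes. The growth hormone receptor gene Ghr was at 0.47 (adjusted p = 0.262), Stat5b at 0.22 (0.337) and Jak2 at 0.48 (0.407). Beside Socs3, the sum of 8 neutrophil markers was 851 to 2706 CPM in saline and 1673 to 7497 CPM in ointment, also highest in ointment 5. None of the 8 neutrophil markers passed with edgeR, but all 8 had positive fold changes (median 1.82), and Ngp was at 0 in some libraries. All 8 had an unadjusted p under 0.05 by edgeR, beside 17.1% of all tested genes. The same held for 6 of 10 macrophage, 4 of 9 endothelial, 4 of 6 pericyte and 2 of 11 fibroblast markers. It also held for 7 of 8 hair follicle, 6 of 8 adipocyte, 4 of 6 smooth muscle, 3 of 8 keratinocyte and 0 of 7 skeletal muscle markers. The part of neutrophils in the Socs3 values was not tested.

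Libraries held 47.8 to 62.9 M counts and each of the 10 IGF genes held at least 501 counts in every library, so the spread between libraries and not the depth set the width of the intervals. Of the marker lists for the labelled tissue, keratinocyte genes (0 of 8 passed, summed level 20362 to 29136 CPM in saline and 15839 to 28224 CPM in ointment) and fibroblast genes were present in every library. Counts of markers that rose, fell or passed are at an adjusted p under 0.05 by edgeR, beside 1.67% of all tested genes. Of 8 hair follicle markers 6 fell, with a summed level of 36.0 to 656 CPM in saline and 13.0 to 40.01 CPM in ointment. Of 8 adipocyte markers 1 rose and 1 fell (759.6 to 2218 and 1171 to 2121 CPM). Of 6 smooth muscle markers 1 fell (770.4 to 1200 and 704 to 1608 CPM), and of 7 skeletal muscle markers none passed (1486 to 4620 and 1012 to 5811 CPM).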

How the data were processed

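RNA from the ulcers was purified on RNeasy columns and turned into cDNA libraries with the SMARTer mRNA kit, according to the labels. Per the submitters' processing notes, GRCm38 (mm10) was the genome; no label names the annotation release, and for the aligner and counting program the sources used here give nothing. Values were gene-level estimated counts in whole numbers, which the authors deposited unnormalized. Among small values, 4 occurred 9202 times and 3 and 5 occurred 4235 and 5804 times, and multiples of 4 were over-represented, so values were not read as single fragments; they were whole and needed no rounding.

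Groups were compared over the whole table with edgeR 4.0.16 (R 4.3.3): filterByExpr (minimum count 10, minimum total 15), TMM, the robust quasi-likelihood F-test with group as the only term, two-sided, and Benjamini-Hochberg adjustment at 0.05. Intervals are 95% intervals of the log2 fold change. Correlations used log2 CPM with a prior count of 2. Lengths and positions came from GENCODE mouse release M21 and promoters from RefSeq, both on GRCm38. Alternatives included DESeq2 1.42.0 on the same genes and limma 3.58.1 (voom). The pipeline was tested on simulated data.

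The members, lists and tests were chosen with earlier results of these data known. Named genes were the 10 members, up to 4 genes of smallest p per pathway list, the 3 genes most like each member, and summed cell type markers; Insr, H19 and Grb10, further list members, and the markers Adgre1 and Cd68 were named after their values were seen. Of the genes this rule names, 1 is not reported here.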

Additional observations from a re-analysis of the deposited data

Results flagged for a closer look

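In each group of 5 libraries, the gap of the highest or lowest library to its neighbour was compared with the whole range by Dixon's criterion, for which the limit is 0.71. Of 20 groups (10 genes in saline and ointment) 2 exceeded it. Chance alone passes about 1 in 20 if values are normally distributed. The criterion was applied to CPM and not to log2 CPM, so that rate may not hold and the flags depend on the scale. Igf2 in saline 5 was 133 CPM, with a gap of 0.767 of the range to the next saline library. Igfbp6 in ointment 1 was 114 CPM, with a gap of 0.834 of the range.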

How the results depend on the processing

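None of the 10 members passed the threshold in any of 21 other settings, and 7 of them kept their direction in all 21: Igf1, Igf2r, Igfbp2, Igfbp3, Igfbp4, Igfbp5 and Igfbp7. With each library left out, the log2 fold change of Igf2 ran from -0.42 to 0.16 (positive without saline 5), that of Igf1r from -0.41 to 0.088 (positive without ointment 2, at 0.08, and without ointment 4) and that of Igfbp6 from -0.44 to 0.094 (positive without saline 2). The count over all genes, 310, was 1677 with DESeq2 and 59 with 4 libraries per group (without saline 1 and ointment 5). With each library left out it ran from 102 to 422, and it was at most 184 without any one of saline 1 to 4 or ointment 1, 2, 3 or 5. With the replicate number as a block it was 0, from edgeR, and 0 members and 0 signalling genes passed. Same-numbered libraries of the groups did not deviate together (correlations of -0.077 to 0.056; none of the 5 saline libraries correlated best with its own number), so the numbers were not taken as pairs. Of the 25 signalling genes 1 passed with a filter at 5 CPM, with values divided by 4 and with limma voom, in each case Grb2, and 3 with DESeq2. With each library left out, 0 to 1 passed. The causes of these shifts were not tested. Scaling moved the median log2 fold change of all genes by less than 0.1.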

Other observations

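Some pathway genes outside the family varied widely between libraries of 1 group. For Insr, saline 5 held 9.91 CPM while the remaining saline libraries held 34.6 to 60.8 CPM. For Igf2bp2, saline 3 held 1.98 CPM and the remaining saline libraries 9.62 to 23.7 CPM. Grb10, an imprinted adaptor gene that dampens insulin and IGF signalling, ranged from 95.05 to 332 CPM in saline and from 58.7 to 386 CPM in ointment.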
